A study of Homo sapiens with 22 samples.

Results

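The MYC and MAX network is a group of transcription factors that compete for a common partner, and its 10 genes MYC, MYCN, MYCL, MAX, MXD1, MXI1, MXD3, MXD4, MNT and MGA were read here in human neuroblastoma cells treated with PP121 and bufalin. They were chosen by symbol, 1 row each, out of 35237 rows of a gene count table. The rule used no measured value, but earlier results of these data were known when the genes were chosen. Of the 10 genes, 3 (MYC, MYCN and MYCL) encode activators, 1 encodes the shared partner MAX, and 6 encode proteins that repress.

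MAX forms a dimer with each of the others through a basic helix-loop-helix zipper domain, and the dimers bind the E-box, the DNA word CACGTG. MYC-MAX dimers recruit histone acetyltransferases and raise the expression of genes for ribosome assembly, nucleotide and amino acid metabolism and the cell cycle. MXD1, MXI1, MXD3, MXD4 and MNT take MAX for themselves and recruit the SIN3 and histone deacetylase corepressor to such sites, while MGA brings MAX into a Polycomb repressor complex. In neuroblastoma, a tumour of the sympathetic nervous lineage, amplification of MYCN marks high-risk disease, and SK-N-AS and GIMEN are established lines without that amplification.

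The libraries fell into 6 groups. Untreated SK-N-AS cells (n = 4) grew in DMEM with 10% serum. S1D4 cells (n = 4) had 4 days of 5 µM PP121, an inhibitor of tyrosine kinases and phosphoinositide kinases, in DMEM with 1% serum. S2D4 and S2D30 cells (n = 4 each) started as S1D4 cells. They then had 4 or 30 days of 5 µM PP121 with 100 nM bufalin, a cardiac glycoside that inhibits the sodium-potassium pump. Their medium was Neurobasal with the B27 supplement and no serum. Untreated GIMEN cells (n = 3) grew in RPMI with 10% serum, and GIMEN D30 cells (n = 3) had 30 days of 2.5 µM PP121 with 10 nM bufalin in RPMI with 1% serum. No group had the compounds without the change of serum or medium, so compound and medium cannot be told apart. The labels number the replicates without saying that they were separate cultures, so p-values measure only the spread between these samples. These are bulk samples, in which fewer cells of a type and less RNA per cell cannot be told apart.

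Total counts per library ran from 16456484 to 37506800, and no library was a copy of another. S2D4 replicate 4 stood apart, with a Pearson correlation of 0.963 to 0.966 with the other S2D4 libraries across 14517 genes, against 0.996 among those 3, so the S2D4 values of the members that were called are also given without it. The labels call both lines MES. The summed level of 10 adrenergic markers was 2272 to 2504 CPM (counts scaled to the library total) in untreated SK-N-AS and 1006 to 1028 CPM in untreated GIMEN. Of 10 mesenchymal markers, all 10 had more than 3 counts in a library of untreated SK-N-AS and 9 in untreated GIMEN, where their summed level was 42280 to 44065 CPM against 1524 to 2150 CPM in SK-N-AS. In SK-N-AS the summed level of 15 cell cycle genes was 2044 to 2274 CPM before treatment, then 551 to 909 CPM at S1D4, 453 to 749 CPM at S2D4 and finally 125 to 131 CPM at S2D30. In GIMEN it was 2463 to 2491 CPM in untreated cells and 92.7 to 109.8 CPM at D30, and its part in the results below was not tested.

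The promoter windows of MXD4, MNT and MXI1 shown here are those, among the windows of the network's genes, that hold 1 of the searched words, the E-box or a forkhead word. Of the 10 genes, 9 matched RefSeq promoters of the GRCh38.p14 build, 14 in all, each reaching from 250 bases before to 50 after a transcription start. MYC was not matched. The E-box CACGTG, which is its own reverse complement, was in 2 of the 14 windows and in 7.26% of 35116 promoters of the same length. The forkhead word GTAAACA, searched on both strands (TGTTTAC on the other), was in 2 of the 14 windows, both at MXI1, and in 3.42% of all promoters. Both words were chosen after the promoters had been seen, a match is only a description, and capitals mark the word in each sequence.
MXD4, chr4:2262060-2262359, minus strand, E-box at position -238 from the start: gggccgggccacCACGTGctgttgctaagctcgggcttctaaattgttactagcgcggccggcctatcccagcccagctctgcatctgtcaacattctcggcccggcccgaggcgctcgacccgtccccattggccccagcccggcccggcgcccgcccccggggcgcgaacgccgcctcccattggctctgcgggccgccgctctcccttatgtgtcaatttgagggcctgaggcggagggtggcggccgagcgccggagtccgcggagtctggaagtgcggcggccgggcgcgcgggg
MNT, chr17:2401011-2401310, minus strand, E-box at position -193 from the start: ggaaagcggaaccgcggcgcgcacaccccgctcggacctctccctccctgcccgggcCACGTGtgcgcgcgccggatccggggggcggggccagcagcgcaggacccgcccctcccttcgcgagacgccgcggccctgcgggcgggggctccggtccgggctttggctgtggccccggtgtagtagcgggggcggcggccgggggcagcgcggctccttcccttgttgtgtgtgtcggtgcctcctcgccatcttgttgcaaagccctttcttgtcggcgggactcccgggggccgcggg
MXI1, chr10:110209981-110210280, plus strand, forkhead word at position -151 from the start: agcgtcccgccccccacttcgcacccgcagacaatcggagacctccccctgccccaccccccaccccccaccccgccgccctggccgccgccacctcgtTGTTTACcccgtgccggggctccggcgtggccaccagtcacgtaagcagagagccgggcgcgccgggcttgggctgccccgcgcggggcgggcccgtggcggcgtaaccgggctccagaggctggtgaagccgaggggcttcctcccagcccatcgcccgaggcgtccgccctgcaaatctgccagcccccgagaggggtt
MXI1 at a later start, chr10:110225746-110226045, plus strand, forkhead word at position -2 from the start: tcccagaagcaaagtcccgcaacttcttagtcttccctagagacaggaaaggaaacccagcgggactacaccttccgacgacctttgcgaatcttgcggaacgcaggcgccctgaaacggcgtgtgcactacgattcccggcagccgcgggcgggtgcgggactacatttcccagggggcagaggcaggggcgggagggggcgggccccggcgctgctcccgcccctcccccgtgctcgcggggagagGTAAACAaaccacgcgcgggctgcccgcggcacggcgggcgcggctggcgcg

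Compared with untreated SK-N-AS, some members differed from the first step of treatment. In S1D4, 5 of the 10 genes were higher (MYCN, MAX, MXD1, MXI1 and MNT), 3 were lower (MYCL, MXD3 and MXD4) and 2 did not pass an adjusted p under 0.05 in edgeR's quasi-likelihood test, while 17.6% of 15810 genes tested were higher and 22.4% lower. In S2D4, 4 genes were higher (MYC, MXD1, MNT and MGA) and 3 lower (MYCL, MXD3 and MXD4), against 30.9% and 32.2% of all genes. In S2D30, 4 were higher (MXD1, MXI1, MNT and MGA) and 4 lower (MYC, MYCL, MXD3 and MXD4), against 33.8% and 36.5%. In S2D4 and S2D30 the numbers of members called were near the shares of all genes. The S1D4 call of MAX was lost under several settings, given below. These 3 comparisons share their untreated libraries. MXD1 and MNT rose and MYCL, MXD3 and MXD4 fell in each of the 3.

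**Figure D1:**
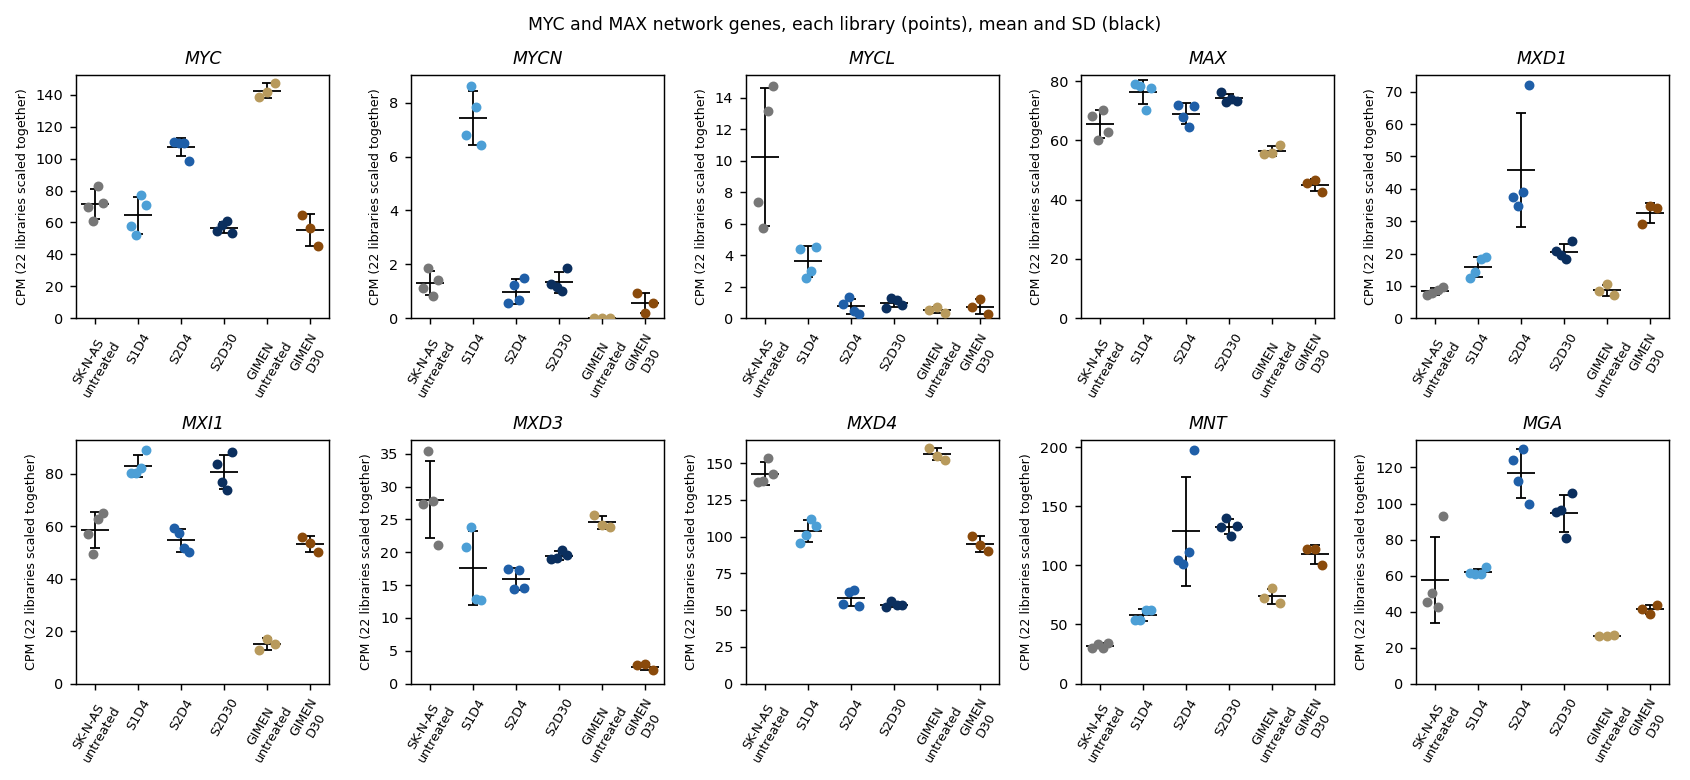
Level of each of the 10 genes in every library, in CPM with 1 scaling of all 22 libraries, by group. The text uses CPM scaled within each line, except for levels per length. Mean MYC in untreated SK-N-AS is 71.5 CPM here and 75.7 CPM within the line. In untreated GIMEN it is 142.5 CPM here and 129.2 CPM within the line. Points are libraries and lines are group means. MNT stands higher and MXD4 lower in each treated SK-N-AS group than in untreated cells, and MYC is highest in untreated GIMEN.

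MYC, the broadly expressed activator, moved in both directions. It stood at 74.0, 65.0, 88.7 and 75 CPM in the untreated SK-N-AS libraries, at 60.1, 54.3, 80.3 and 73.6 CPM in S1D4, at 114.2, 113.7, 114.0 and 101.3 CPM in S2D4, and at 56.3, 60.6, 62.5 and 54.9 CPM in S2D30. S1D4 overlapped untreated cells, every S2D4 library was above every untreated library, and every S2D30 library was below. The log2 difference was -0.17 in S1D4 (SE 0.12, adjusted p = 0.257, edgeR). MYC rose by 0.55 on the log2 scale in S2D4 (SE 0.12, adjusted p = 0.00059, edgeR), a 1.46-fold increase, and by 0.59 without S2D4 replicate 4. It fell by 0.37 in S2D30 (SE 0.12, adjusted p = 0.0098, edgeR), a 1.29-fold decrease.

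MYCN, the family member of the developing nervous system, was scarce in untreated SK-N-AS and rose in S1D4, while its differences in S2D4 and S2D30 did not pass. Its libraries read 1.19, 2.0, 0.865 and 1.45 CPM untreated, 7.05, 8.96, 8.16 and 6.69 CPM in S1D4, 0.578, 1.29, 0.683 and 1.53 CPM in S2D4, and 1.31, 1.22, 1.03 and 1.93 CPM in S2D30. All S1D4 libraries lay above all the others. The rise in S1D4 was 5.59-fold (log2 2.48, SE 0.31, adjusted p = 1.05e-05, edgeR), and the fall from S1D4 to S2D4 was 7.43-fold (log2 -2.89, adjusted p = 1.2e-06, edgeR; -3.19 without S2D4 replicate 4). Against untreated cells the log2 difference was -0.41 in S2D4 (adjusted p = 0.274, edgeR; -0.71, adjusted p = 0.0707, without S2D4 replicate 4 and -0.20 without untreated replicate 2) and 0.00 in S2D30 (adjusted p = 0.996, edgeR).

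MYCL, the third activator, fell in every treated SK-N-AS group, to about 1 CPM in S2D4 and S2D30. It read 7.85, 6.11, 14 and 15.3 CPM in untreated SK-N-AS, 4.55, 2.64, 3.12 and 4.70 CPM in S1D4, 0.916, 1.40, 0.488 and 0.300 CPM in S2D4, and 0.679, 1.32, 1.21 and 0.897 CPM in S2D30. No treated SK-N-AS library reached the lowest untreated one, and the spread among untreated SK-N-AS libraries was wide. MYCL fell 2.87-fold in S1D4 (log2 -1.52, SE 0.36, adjusted p = 0.00319, edgeR), 14.4-fold in S2D4 (log2 -3.85, SE 0.42, adjusted p = 6.8e-07, edgeR; -3.54 without S2D4 replicate 4) and 10.5-fold in S2D30 (log2 -3.39, SE 0.41, adjusted p = 1.22e-06, edgeR).

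MAX, the obligate partner, differed little between groups. It read 72.8, 64.3, 75.1 and 64.9 CPM in untreated SK-N-AS and 82.0, 81.5, 73.2 and 80.7 CPM in S1D4. S2D4 libraries ranged from 67.0 to 74.5 CPM and S2D30 libraries from 75.5 to 78.6 CPM. The groups of S1D4 and untreated cells overlapped, and the log2 difference of 0.20 (SE 0.07, adjusted p = 0.0396, edgeR) lost its call without a filter on low counts (adjusted p = 0.0747, edgeR), with the compared groups alone (0.0538), and without untreated replicate 2 or 4 or S1D4 replicate 1, 2 or 4 (0.0671 to 0.121). In S2D30 the log2 difference was 0.14 (adjusted p = 0.0844, edgeR), and it passed with the size factors of DESeq2 (0.18, adjusted p = 0.039, edgeR) and without untreated replicate 1 or 3 (0.20 and 0.18, adjusted p = 0.0393 and 0.0467, edgeR).

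Among the repressors, MNT rose in every treated group. MNT, a broadly expressed antagonist of MYC, stood at 32.5, 35.5, 32.0 and 35.7 CPM in untreated SK-N-AS, at 55.5, 55.9, 64.6 and 65.0 CPM in S1D4, at 108.2, 104.6, 115.4 and 203.7 CPM in S2D4, and at 137.1, 144.9, 129.1 and 137.7 CPM in S2D30. No library of a treated group overlapped the untreated ones, and S2D4 replicate 4 was far above its group. The rise was 1.78-fold in S1D4 (log2 0.83, SE 0.16, adjusted p = 0.000774, edgeR), 3.92-fold in S2D4 (log2 1.97, SE 0.17, adjusted p = 3.5e-08, edgeR) and 4.05-fold in S2D30 (log2 2.02, SE 0.17, adjusted p = 1.45e-08, edgeR). Without S2D4 replicate 4 the rise in S2D4 was 1.69 on the log2 scale.

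MXD1, a repressor associated with terminal differentiation, peaked in S2D4. It read 7.77, 8.25, 9.16 and 10.1 CPM untreated, 12.8, 14.8, 18.9 and 19.6 CPM in S1D4, 38.9, 35.7, 40.6 and 74.1 CPM in S2D4, and 21.3, 20.2, 18.8 and 24.7 CPM in S2D30. All treated libraries exceeded all untreated ones, and replicate 4 was again the highest of S2D4. The rises were 1.88-fold (log2 0.91, SE 0.21, adjusted p = 0.0025, edgeR), 5.38-fold (log2 2.43, SE 0.21, adjusted p = 5.3e-08, edgeR; 2.12 without that library) and 2.41-fold (log2 1.27, SE 0.21, adjusted p = 4.26e-05, edgeR).

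MXD4, another repressor of the MXD family, fell in every treated group. It read 145.8, 147.1, 164.1 and 147.7 CPM untreated and 99.0, 105.3, 116.8 and 111.5 CPM in S1D4. It then read 55.8, 64.1, 65.8 and 54.1 CPM in S2D4, and 54.0, 57.9, 55.0 and 55.3 CPM in S2D30. Each treated group lay wholly below untreated cells. The falls were 1.40-fold in S1D4 (log2 -0.48, SE 0.08, adjusted p = 0.000167, edgeR), 2.52-fold in S2D4 (log2 -1.33, SE 0.08, adjusted p = 7.13e-10, edgeR; -1.29 without S2D4 replicate 4) and 2.72-fold in S2D30 (log2 -1.44, SE 0.08, adjusted p = 1.25e-10, edgeR). Over all settings run, the S2D30 value stayed between -1.46 and -1.41.

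MXI1, also called MXD2 in the older naming of the family, alternated with the steps. Its libraries read 60.8, 52.6, 67.0 and 67.3 CPM untreated, 83.2, 83.4, 85.6 and 92.7 CPM in S1D4, 61.5, 59.2, 53.4 and 51.7 CPM in S2D4, and 86.3, 79.6, 76.0 and 91.3 CPM in S2D30. S1D4 and S2D30 lay above untreated cells without overlap, and S2D4 overlapped them. MXI1 rose by 0.48 on the log2 scale in S1D4 (SE 0.09, adjusted p = 0.000625, edgeR) and by 0.43 in S2D30 (SE 0.09, adjusted p = 0.000561, edgeR), with -0.13 in S2D4 (adjusted p = 0.218, edgeR; -0.09 without S2D4 replicate 4).

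MXD3, a family member linked to proliferating cells, read 29.2, 37.8, 29.7 and 21.9 CPM in untreated SK-N-AS, 21.6, 24.9, 13.5 and 13.3 CPM in S1D4, 18.1, 14.9, 17.95 and 15 CPM in S2D4, and 19.5, 19.8, 21.0 and 20.1 CPM in S2D30. S1D4 overlapped untreated cells, while S2D4 and S2D30 lay below. The log2 falls were -0.70 (adjusted p = 0.0081, edgeR), -0.84 (adjusted p = 0.00106, edgeR; -0.80 without S2D4 replicate 4) and -0.56 (adjusted p = 0.0153, edgeR), and the last lost its call without untreated replicate 2 (-0.42, adjusted p = 0.0636, edgeR). MXD3 is a less certain measurement than the others. In GENCODE v29, 22.5% of its exon bases overlap a gene on the other strand, 17.97% overlap one on the same strand, and 15.6% of its 75-base words occur in other genes. MNT has the next largest overlap with a gene on the other strand, at 12.2% of its exon bases. Whether the counting used strand is not given in the sources used here.

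MGA, the largest protein of the network, read 48.0, 53.4, 45.3 and 96.6 CPM in untreated SK-N-AS, 63.8, 63.1, 63.5 and 67.3 CPM in S1D4, 128.8, 116.3, 134.8 and 102.6 CPM in S2D4, and 98.5, 99.6, 83.2 and 109.1 CPM in S2D30. Untreated replicate 4 was far above the other 3, and it was the one untreated library that overlapped S2D30. MGA rose by 0.99 on the log2 scale in S2D4 (SE 0.18, adjusted p = 0.000199, edgeR; 1.05 without S2D4 replicate 4) and by 0.68 in S2D30 (SE 0.18, adjusted p = 0.00346, edgeR). In S1D4 the difference was 0.08 (adjusted p = 0.764, edgeR), but 0.41 (adjusted p = 0.00509, edgeR) without untreated replicate 4.

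**Figure D2:**
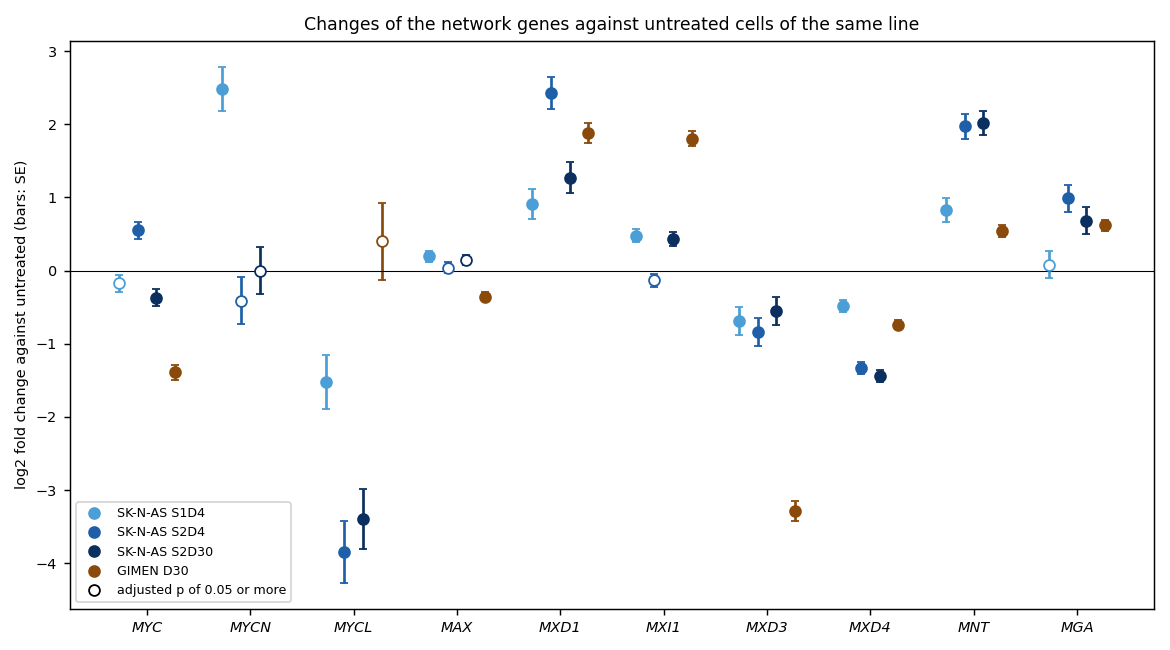
Log2 fold change of each gene against untreated cells of the same line, with its standard error, for S1D4, S2D4, S2D30 and GIMEN D30. MYCN is not drawn for GIMEN, where it was not tested, and MXD4 is lower in all 4 comparisons.

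The step from S1D4 to S2D4 added bufalin, changed the medium and removed the serum. At this step 4 members were higher and 4 lower, against 28.3% and 26.8% of all genes. MYC rose by 0.72 on the log2 scale (adjusted p = 6.66e-05, edgeR), MXD1 by 1.52 (adjusted p = 1.18e-05, edgeR), MNT by 1.14 (adjusted p = 2.04e-05, edgeR) and MGA by 0.90 (adjusted p = 0.000576, edgeR). MYCN and MYCL fell, as did MXI1 (log2 -0.61, adjusted p = 3.54e-05, edgeR) and MXD4 (log2 -0.85, adjusted p = 2.48e-07, edgeR). Without S2D4 replicate 4 these 8 calls held, with MYC at 0.76, MXD1 at 1.21, MNT at 0.86, MGA at 0.97, MYCL at -2.02, MXI1 at -0.57 and MXD4 at -0.81. From S2D4 to S2D30, under the same compounds and medium, only MXI1 was higher and MYC and MXD1 lower, against 24.4% and 26.9% of all genes. MYC fell by 0.92 (adjusted p = 6.88e-06, edgeR; -0.96 without replicate 4), MXD1 fell by 1.16 (adjusted p = 0.000169, edgeR; -0.85 without it) and MXI1 rose by 0.56 (adjusted p = 9.05e-05, edgeR; 0.52 without it). The value of MNT depended on that library, with 0.04 (adjusted p = 0.842, edgeR) with it and 0.32 (adjusted p = 0.00214, edgeR) without it.

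In GIMEN the 30-day change on the log2 scale was largest for MXD3, followed by MXD1, MXI1 and MYC. Of 9 members tested, 4 were higher (MXD1, MXI1, MNT and MGA), 4 lower (MYC, MAX, MXD3 and MXD4) and 1 (MYCL) did not pass, against 35.5% and 36% of 13517 genes. MYC fell from 125.3, 128.2 and 134.2 CPM to 57.3, 50.2 and 40.3 CPM, a 2.62-fold decrease (log2 -1.39, SE 0.10, adjusted p = 2.85e-07, edgeR). MXD3 fell from 23.2, 21.9 and 21.7 CPM to 2.44, 2.59 and 1.78 CPM, a 9.74-fold decrease (log2 -3.28, SE 0.14, adjusted p = 2.62e-09, edgeR). For both genes every D30 library lay below every untreated one. The 15 cell cycle genes also fell, with a median log2 change of -5.60 in GIMEN and -5.41 in S2D30. In S2D30, MYC fell by 0.37 and MXD3 by 0.56 on the log2 scale. The part of the cell cycle genes in these changes was not tested.

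The repressors other than MXD3 and MXD4 rose in GIMEN. MXD1 went from 7.55, 9.48 and 6.47 CPM to 25.8, 30.9 and 30.4 CPM (3.69-fold, log2 1.88, SE 0.13, adjusted p = 2.05e-07, edgeR). MXI1 went from 11.5, 15.5 and 13.8 CPM to 49.6, 47.6 and 44.8 CPM (3.48-fold, log2 1.80, SE 0.10, adjusted p = 3.4e-08, edgeR). Both were thus several times as high at D30 in every library. MNT went from 65.1, 73.3 and 62.1 CPM to 100.5, 101.3 and 89.9 CPM (log2 0.54, adjusted p = 5.93e-05, edgeR), and MGA from 23.7, 23.9 and 24.4 CPM to 36.7, 34.4 and 39.2 CPM (log2 0.62, adjusted p = 1.74e-05, edgeR). MXD4 fell from 145.0, 140.6 and 138.5 CPM to 88.9, 84.0 and 80.7 CPM (log2 -0.74, adjusted p = 5.93e-07, edgeR). MAX fell from 49.98, 50.6 and 53.1 CPM to 40.4, 41.4 and 38.1 CPM (log2 -0.36, adjusted p = 0.000383, edgeR). MYCL was at 0.308 to 0.668 CPM before and 0.230 to 1.07 CPM after (log2 0.40, adjusted p = 0.515, edgeR; -0.16 without D30 replicate 2 and 0.79 without D30 replicate 3). MYCN had 0 counts in the 3 untreated libraries and 16, 3 and 9 counts at D30. The D30 mean was 3.55-fold the level of a floor of 3 counts per library, while D30 replicate 2 had only 3 counts. MYCN was below the filter and not tested.

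Untreated GIMEN and SK-N-AS cells differed in the level of some members, as they did for most genes tested. Of the 10 genes, 2 were higher in GIMEN and 5 lower, against 35.3% and 38.6% of 16246 genes. MYC was 2.02-fold higher in GIMEN (log2 1.01, adjusted p = 3.53e-07, edgeR) and MNT 2.33-fold higher (log2 1.22, adjusted p = 3.87e-10, edgeR). The MYCN mean in SK-N-AS was 8.28-fold the level of the floor of 3 counts per library. MYCL was 18.6-fold higher in SK-N-AS (log2 -4.22 for GIMEN over SK-N-AS, adjusted p = 1.9e-07, edgeR). MXI1 was 3.86-fold lower in GIMEN (adjusted p = 1.81e-10, edgeR) and MGA 2.15-fold lower (adjusted p = 9.91e-05, edgeR). MAX was 1.15-fold lower in GIMEN (adjusted p = 0.034, edgeR), a call lost without a filter (adjusted p = 0.101, edgeR) and without any library of untreated GIMEN or untreated SK-N-AS replicate 1 or 3 (0.0672 to 0.141). MXD1, MXD3 and MXD4 did not pass. The calls of MXD3 and MXD4 appeared without SK-N-AS replicate 4 (-0.30, adjusted p = 0.0161, edgeR) and replicate 3 (0.18, adjusted p = 0.027, edgeR). Upper-quartile scaling moved the median of all genes by -0.15 here, more than the value of MXD4.

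The test of whether the 30-day change differed between the lines, with the doses and media differing as given above, called 5 members higher in GIMEN and 4 lower, against 25.2% and 24.5% of all genes. One of the 5, MYCN, rests on a group at 0 counts and its size is not given. The MYC change was lower in GIMEN by -1.0 on the log2 scale (SE 0.16, adjusted p = 7e-05, edgeR), MXD3 was -2.71 (SE 0.23, adjusted p = 5.52e-08, edgeR) and MNT was -1.46 (SE 0.11, adjusted p = 2.01e-08, edgeR). MXI1 was 1.39 (SE 0.16, adjusted p = 1.97e-06, edgeR), MXD4 0.72 (SE 0.10, adjusted p = 1.44e-05, edgeR) and MYCL 3.81 (SE 0.68, adjusted p = 0.000191, edgeR). The MNT rise was thus larger in SK-N-AS and the MXI1 rise larger in GIMEN. The MYCL value rests on the fall in SK-N-AS. In GIMEN, MYCL was near the floor, at 6 to 15 counts untreated and 4 to 19 at D30, with little room to fall. MAX differed by -0.48 (adjusted p = 0.00177, edgeR). MXD1 differed by 0.63 (adjusted p = 0.0137, edgeR), a call lost in a model of all 22 libraries (adjusted p = 0.111, edgeR) and without untreated GIMEN replicate 3 (adjusted p = 0.0565, edgeR). For MGA the difference was -0.05 (adjusted p = 0.92, edgeR), and -0.36 (adjusted p = 0.0261, edgeR) without untreated SK-N-AS replicate 4.

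The ratio of a repressor's count to the MYC count within a library does not depend on how libraries are scaled, so it was set out as a description with no test. In SK-N-AS, MNT over MYC was 0.456 ± 0.078 (SD, n = 4) before treatment, then 0.911 ± 0.094 at S1D4, 1.22 ± 0.53 at S2D4 (0.920 to 1.01 without replicate 4) and finally 2.35 ± 0.20 at S2D30. In GIMEN it was 0.518 ± 0.055 (SD, n = 3) in untreated cells and 2.0 ± 0.24 at D30. The 2 untreated groups overlapped, and each 30-day library of either line was above every untreated library. MXI1 over MYC went from 0.821 ± 0.058 to 1.43 ± 0.20 in S2D30 and from 0.105 ± 0.015 to 0.975 ± 0.12 in GIMEN. Between these SK-N-AS groups it was 1.31 ± 0.20 at S1D4 and 0.510 ± 0.030 at S2D4, below untreated cells. MXD1 over MYC went from 0.117 ± 0.016 to 0.366 ± 0.064 in S2D30 and from 0.0608 ± 0.013 to 0.607 ± 0.15 in GIMEN. It was 0.247 ± 0.028 at S1D4 and 0.436 ± 0.20 at S2D4, where replicate 4 was at 0.732. MXD4 over MYC moved in opposite directions, from 2.01 ± 0.18 to 0.950 ± 0.053 in S2D30 and from 1.10 ± 0.063 to 1.74 ± 0.23 in GIMEN D30. In S1D4 and S2D4 it was 1.64 ± 0.22 and 0.541 ± 0.039.

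**Figure D3:**
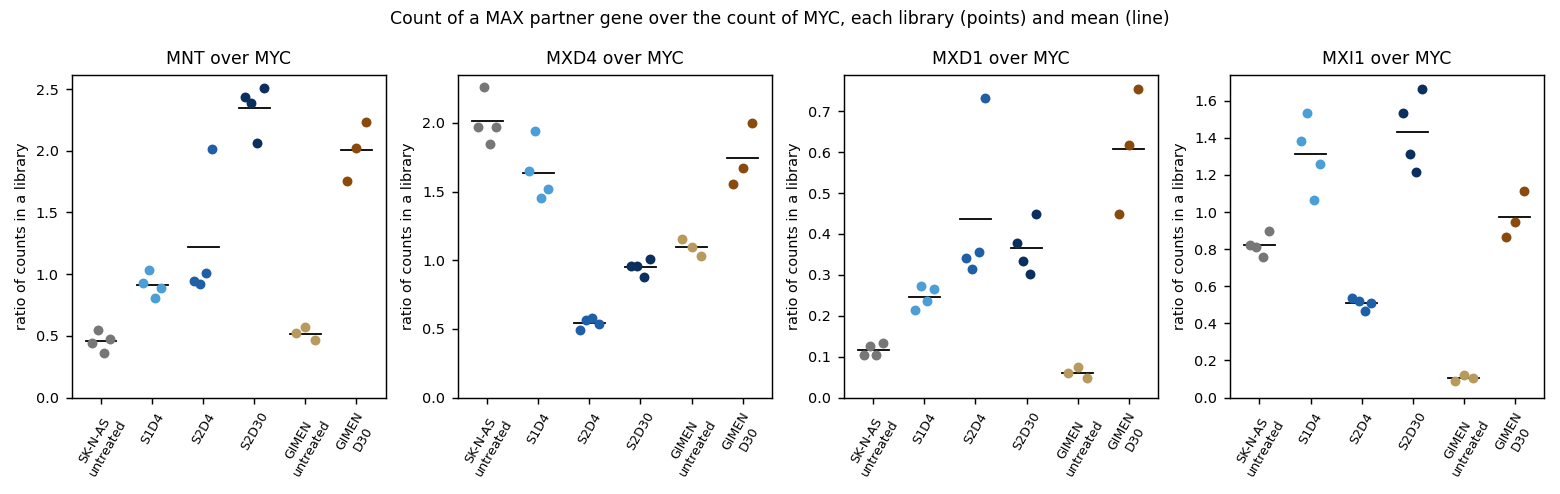
Count of MNT, MXD4, MXD1 and MXI1 divided by the count of MYC in the same library, for each library (points) with the group mean (line). The MNT ratio is at 2.07 to 2.51 in S2D30 and 1.75 to 2.23 in GIMEN D30, against 0.361 to 0.572 over both untreated groups.

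Levels of different genes were compared per length, as CPM per kilobase of the longest GENCODE v29 transcript. These CPM used 1 scaling of all 22 libraries. In untreated SK-N-AS, MXD4 (33.8 ± 1.83, SD, n = 4) and MYC (30.2 ± 3.88) were highest and overlapped, followed by MAX (20.7 ± 1.51), MXI1 (16.9 ± 2.02), MXD3, MNT, MGA, MYCL, MXD1 and last MYCN (0.50 ± 0.17). In S2D30, MNT (26.6 ± 1.22), MYC (24.0 ± 1.48), MAX (23.5 ± 0.45) and MXI1 (23.2 ± 1.88) formed the top with overlapping neighbours. In untreated GIMEN, MYC (60.2 ± 1.92) was above MXD4 (36.9 ± 0.98) and MAX (17.9 ± 0.52) without overlap, and at D30 MYC (23.4 ± 4.18), MXD4 (22.5 ± 1.24) and MNT (21.9 ± 1.55) overlapped. This order depends on the transcript length chosen.

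The gene lists around the network were described by counts and medians, with no test of a list. Of all genes tested, 17.6% rose and 22.4% fell in S1D4, and 30.9% and 32.2% in S2D4. In S2D30 these shares were 33.8% and 36.5%, and in GIMEN D30 35.5% and 36%. Among 25 MYC targets of nucleolus and ribosome assembly, 1 rose and 13 fell in S1D4 (median log2 change -0.28), 13 rose and 3 fell in S2D4 (0.24), 2 rose and 12 fell in S2D30 (-0.16), and 0 rose and 23 fell in GIMEN D30 (-0.94). The medians of all genes were -0.01, -0.02, -0.03 and 0.02. FBL, a nucleolar methyltransferase, fell by 1.32 in S2D30 and 0.99 in GIMEN, and NOP16 fell by 1.02 and 1.36. WDR43, of ribosome assembly, rose by 0.76 in S2D30 and fell by 0.998 in GIMEN. RRP12 rose by 0.56 in S2D30 and was at -0.13 in GIMEN. In S2D4 the count of falls moved from 1, without untreated replicate 1 or S2D4 replicate 1 or 2, to 6 without S2D4 replicate 4, which left 11 rises.

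Among 22 MYC targets of metabolism and growth, 4 rose and 11 fell in S1D4 (median log2 change -0.25). The shares of all genes there were 17.6% and 22.4%. In S2D4, 9 rose and 7 fell (0.11), against 30.9% and 32.2%, with the falls near their share. In S2D30, 5 rose and 14 fell (-0.33), against 33.8% and 36.5%. In GIMEN D30, 1 rose and 17 fell (-0.84), against 35.5% and 36%. PAICS, of purine synthesis, fell by 1.36 in S2D30 and 1.79 in GIMEN, and SRM, spermidine synthase, fell by 1.32 and 1.51. SLC3A2, a subunit of amino acid transporters, rose by 3.78 and 0.82, while its partner SLC7A5 rose by 1.90 in S2D30 and fell by 1.33 in GIMEN. Of 8 genes known to be repressed by MYC, 6 rose and 0 fell in S1D4 (median 1.31), 4 rose and 2 fell in S2D4 (1.02), and 5 rose and 1 fell in S2D30 (1.63). That 1 fall was CDKN1B, and a second was called without S2D30 replicate 4. All 6 tested in GIMEN rose (1.15). CDKN2B and CDKN1A, inhibitors of cyclin-dependent kinases, rose by 5.31 and 4.85 in S2D30 and by 2.39 and 0.90 in GIMEN, while CDKN1B fell by 0.69 in S2D30 and rose by 1.07 in GIMEN. All 15 cell cycle genes fell in S1D4, S2D4, S2D30 and GIMEN D30, with medians of -1.62, -2.61, -5.41 and -5.60, with MKI67 at -10.38 in S2D30 and -6.78 in GIMEN and TOP2A at -8.89 and -5.90.

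**Figure D4:**
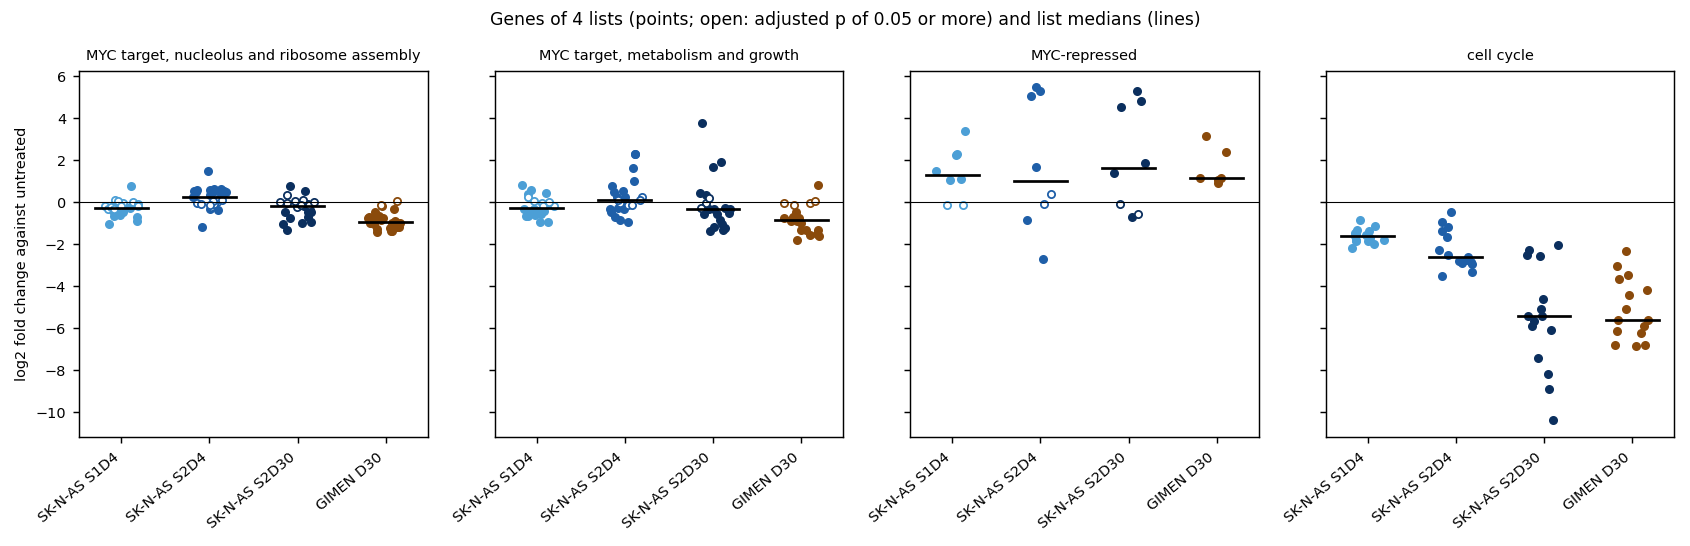
Log2 fold changes of the listed genes against untreated cells, by list, with each tested gene as a point and the list median as a line. The cell cycle list lies below 0 throughout, and the ribosome list is above 0 at its median in S2D4 and below in the others.

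The parallel MLX arm pairs the factor MLX with MLXIP or MLXIPL, sensors of glucose metabolites, and TXNIP and ARRDC4 are its classic targets. Of its 5 genes, 1 rose and 1 fell in S1D4, 2 and 2 in S2D4 and 2 and 1 in S2D30. Of 4 tested in GIMEN, 2 rose and 1 fell. The shares of all genes in the same order were 17.6% and 22.4%, 30.9% and 32.2%, 33.8% and 36.5%, and 35.5% and 36%. With so few genes, these counts were near the shares. ARRDC4 rose by 1.10, 3.33 and 2.08 in S1D4, S2D4 and S2D30, and TXNIP was at -0.03 in S1D4 and rose by 2.98 in S2D4 and 1.59 in S2D30. In GIMEN they rose by 0.94 and 2.32. MLXIP fell by 0.34 in S2D30 and 1.17 in GIMEN, a call lost in S2D30 without untreated replicate 4 or S2D30 replicate 3. The fall in S1D4 was that of MLXIPL (-0.91), lost without untreated replicate 2, 3 or 4 or S1D4 replicate 1, 3 or 4. In S2D4, MLX was at -0.30 and MLXIPL at -1.37, and 1 of these falls was lost without replicate 1, 2 or 3 of either group. MLX was at -0.20 in S2D30 and -0.08 in GIMEN, and MLXIPL, near 1 CPM or below in all groups, at 0.23 in S2D30.

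Cofactor lists were read against the shares of all genes called, given above for each comparison. Of 15 MYC cofactors, 0 rose and 6 fell in S1D4, 4 and 6 in S2D4, 4 and 7 in S2D30 and 4 and 6 in GIMEN D30, with the acetyltransferase KAT5 at 1.01 and 0.36, the cyclin CCNT1 at 0.87 and 0.33, the ubiquitin ligase subunit SKP2 at -4.06 and -2.10 and the ATPase RUVBL1 at -1.46 and -1.61 in S2D30 and GIMEN, all passing. Of 15 SIN3 and HDAC corepressor genes, 1 rose and 5 fell in S1D4, 5 and 5 in S2D4, 4 and 5 in S2D30 and 8 and 6 in GIMEN. In S1D4 the rises among cofactors numbered 1 without untreated replicate 1 or 4, and those among corepressor genes 0 without untreated replicate 2 or 3 or S1D4 replicate 3 or 4, and 4 without untreated replicate 4. ARID4B rose by 0.80 and 0.91 and ING1 by 0.70 and 1.34 in S2D30 and GIMEN, while HDAC2 fell by 0.98 and 0.96 and RBBP4 by 0.62 and 0.56. Of the 9 genes of MGA's Polycomb complex, 0, 1 and 0 rose and 3, 3 and 3 fell in the 3 SK-N-AS comparisons (6 falls in S2D4 without replicate 4), and 2 rose and 5 fell in GIMEN (1 rise without any untreated library or D30 replicate 3). TFDP1 (-3.04 and -1.41) and CBX3 (-0.93 and -0.89) fell in both. Of 16 regulators of MYC turnover, 3 and 5, 6 and 5, 6 and 8, and 6 and 7 rose and fell in the same order. The deubiquitinase USP36 rose by 2.0 in S2D30 and fell by 0.19 in GIMEN, the phosphatase subunit PPP2R5A rose by 1.58 and 0.76, and PLK1 (-5.40 in both) and CIP2A, listed as KIAA1524 (-5.08 and -4.76), fell.

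Marker lists were read beside these results and beside the shares of all genes that rose and fell. Those shares were 33.8% and 36.5% in S2D30 and 35.5% and 36% in GIMEN. The counts of the Schwann, endothelial and leukocyte lists rest on few tested genes. Of 10 adrenergic markers, 0 rose and 9 fell in S2D30 (DBH at -5.05). Of the 6 tested in GIMEN, 1 rose and 3 fell. Of 10 mesenchymal markers, 7 rose and 3 fell in S2D30 (NOTCH2 at 5.13 and CD44 at 4.52, FN1 at -5.02 and COL1A1 at -3.73), and of 9 in GIMEN, 1 rose and 7 fell. Schwann and glial markers summed to at most 10.6 CPM in any library, and 2 rose and 2 fell of 5 tested in S2D30, 1 and 2 of 4 in GIMEN. Of 7 endothelial markers, 4 were tested in S2D30, with 2 rises and 2 falls, and 2 in GIMEN, with 1 of each. Of 9 leukocyte markers, 3 rose and 1 fell of 4 tested in S2D30, and 1 rose and 2 fell of 3 in GIMEN. In GIMEN, 1 leukocyte fall was called without untreated replicate 1 or 3 or D30 replicate 1 or 3, 1 Schwann fall without untreated replicate 1, and 2 adrenergic and 2 mesenchymal rises were called without D30 replicate 3. In S2D30, 1 Schwann fall was called without untreated replicate 1 or S2D30 replicate 2. PTPRC went from 187 CPM in untreated SK-N-AS to 0.877 CPM in S2D30 while CD68 rose from 14 to 127.0 CPM, and CD3E was at 0 in all SK-N-AS groups. Their part in the changes of the network was not tested.

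For MYC, MXD4 and MXI1, the genes most alike in pattern were found as the smallest root mean squared difference of centred log2 CPM means over the 6 groups, among 11582 genes. TTC26 (0.127) and CCDC86 (0.129) were closest to MYC, RBM15B (0.0776) and PTRHD1 (0.0919) to MXD4, and ACP6 (0.207) and C14orf132 (0.215) to MXI1. RBM15B, for example, read 129, 102, 51.3 and 50.7 CPM in the 4 SK-N-AS groups in order of treatment, and 126 and 67.7 CPM in GIMEN. For ACP6, S2D4 replicate 4 read 8.17 CPM against a group median of 41.4 CPM.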

How the data were processed

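RNA-seq was run on 22 libraries, per the labels paired-end on Illumina. The authors deposited raw counts per gene symbol, whole numbers, per the values and file header. The aligner, build, annotation and use of strand are not given in the sources used here. All 22 columns were mapped by name, and no column or row was left unused.

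Counts were fitted with edgeR 4.0.16 in R 4.3.3 (filterByExpr with a minimum count of 10 and total of 15, TMM, quasi-likelihood F-test). One model held 16 SK-N-AS libraries, 1 held 6 GIMEN libraries and 1 held 14 libraries of the untreated and 30-day groups of both lines. P-values were adjusted by Benjamini-Hochberg over all genes tested, with a call under 0.05, and the scripts were tested on simulated data. Depth of 16456484 to 37506800 counts per library sets the precision, and floors of 3 counts cover counting error only. Alternatives were DESeq2 1.42.0 (size factors and test), upper-quartile factors, other filters, a replicate block, an absolute log2 change of at least 1, other sample sets and leaving out each library.

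All 10 members were named. From each of 14 lists (175 genes, all found, 1 under an older symbol) the 2 largest rises and falls in S2D30 with at least 5 CPM were named, and in the MLX list every gene. One gene that this rule names is not reported here. The members and lists were chosen with earlier results of these data known. Pattern likeness used a pseudocount of 0.5 CPM. Sequences are from RefSeq.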

Additional observations from a re-analysis of the deposited data

Results flagged for a closer look

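Within SK-N-AS groups of 4, a library was far from the others in 6 of 40 sets of member values (gap over range past Dixon's critical value, which chance gives in about 1 in 20 groups). S2D4 replicate 4 was low for MYC, at 101.3 CPM against 113.7 to 114.2 CPM (0.954), and high for MXD1, at 74.1 CPM against 35.7 to 40.6 CPM (0.873), and for MNT, at 203.7 CPM against 104.6 to 115.4 CPM (0.890). S1D4 replicate 3 was low for MAX, at 73.2 CPM against 80.7 to 82.0 CPM (0.845). Untreated replicate 3 was high for MXD4, at 164.1 CPM against 145.8 to 147.7 CPM (0.897), and untreated replicate 4 for MGA, at 96.6 CPM against 45.3 to 53.4 CPM (0.842).

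In the interaction test of edgeR, the 30-day change differed between GIMEN and SK-N-AS for 8 members, leaving out MYCN with its group at 0 counts. Each counts as a difference between groups. The size for MYCL rests on its fall in SK-N-AS, since MYCL was near the floor in GIMEN before and after treatment. The log2 differences were -1.0 for MYC, 3.81 for MYCL, -0.48 for MAX, 0.63 for MXD1, 1.39 for MXI1, -2.71 for MXD3, 0.72 for MXD4 and -1.46 for MNT. Doses and media differ between the lines and cannot be told apart from the line.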

How the results depend on the processing

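No call of a member changed direction under any setting run. With an absolute log2 change of at least 1 as a further condition, genes higher and lower numbered 953 and 989 in S1D4, 2096 and 2481 in S2D4, 2807 and 3038 in S2D30, 1406 and 2019 from S1D4 to S2D4, 1603 and 1506 from S2D4 to S2D30, 1599 and 1738 in GIMEN D30, 3008 and 3845 between the untreated lines, and 2265 and 1970 in the interaction. Members called then numbered 2, 4, 4, 4, 1 and 4 in the first 6. With the compared groups alone, 5 members were called from S2D4 to S2D30. With the median transcript length, the highest member per length was the same in 2 of 6 groups. Over the other settings, 588 member values stayed on their side of the threshold, 9 moved, 5 gained and 31 lost a call, mostly through the fold condition. Leaving out single libraries kept 629, moved 16, added 7 and lost 12. MAX was called at -0.25 (adjusted p = 0.0071, edgeR) from S1D4 to S2D4 with upper-quartile factors. With the replicate block, members called were the same number in each comparison (8, 7, 8, 8, 3, 8, 7 and 9), and S1D4 had 2880 genes higher and 3571 lower. The numbers share no stated pairing, and 7 of 27 correlations of same-numbered libraries were above 0.1 (-0.16 to 0.51). Between untreated SK-N-AS and S1D4 they were 0.509, 0.435, 0.00966 and 0.418 for replicates 1 to 4. Since not every pair was above 0.1, the numbers were not taken as pairs. In untreated SK-N-AS and S1D4, a term for replicates 3 and 4, chosen after seeing the data, gave 3014 genes higher and 3754 lower, with 8 members called as without it. Low counts limit MYCN and MYCL.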

Other observations

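The list of metabolism and growth targets held genes that moved in opposite directions in the lines. ODC1, the first enzyme of polyamine synthesis, is named here after its values were seen. It read 154 ± 16.7 CPM (SD, n = 4) in untreated SK-N-AS and 491 ± 32.1 CPM in S2D30, and 220 ± 6.44 CPM (SD, n = 3) in untreated GIMEN and 125 ± 19.4 CPM at D30. The log2 changes were 1.67 (adjusted p = 2.1e-09, edgeR) and -0.82 (adjusted p = 1.29e-05, edgeR), and the difference of the changes was -2.47 (adjusted p = 1.61e-09, edgeR).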
